A study of Homo sapiens with 15 samples.

Results

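The genes described here are 10 genes whose transcription follows the activity of the kinase ERK and most of which act back on the pathway that switched them on. They were taken by name from the gene column of the deposited expression table and are DUSP4, DUSP5, DUSP6, SPRY1, SPRY2, SPRY4, SPRED1, SPRED2, ETV5 and EGR1. All 10 were found among 56624 gene symbols, each on a single row, and all 10 were among the 14881 genes that reached at least 1 TPM in at least 3 libraries and were tested. DUSP4 reached 1 TPM in edited libraries but in no Parental library, so it entered the test through the lines where it was high, whereas the other 9 reached it in Parental as well.

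Growth factor and cytokine receptors switch on RAS, which acts through the kinases RAF and MEK on ERK. Active ERK phosphorylates transcription factors in the nucleus, and among the genes then transcribed are several that dampen the pathway: dual-specificity phosphatases (DUSP) remove the activating phosphates from ERK, Sprouty proteins (SPRY) restrain signalling between the receptor and RAF, and SPRED proteins bring the RAS inhibitor neurofibromin to the membrane. In blood cells, GM-CSF signals through JAK2 to STAT5 and also through RAS to ERK, and levels of these transcripts are widely read as a measure of ERK output.

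The libraries were made from TF-1 cells, an erythroleukaemia line of human origin that needs cytokines such as GM-CSF, and from TF-1 lines in which base editing, which changes single bases without cutting both DNA strands, had introduced a mutation of IDH1 or IDH2. The 15 libraries formed 5 groups of 3: IDH1R132H, IDH2R140Q, IDH2R140W and IDH2R172K, all base-edited and grown without GM-CSF, and Parental, unedited and grown with 2 ng/ml GM-CSF. All groups grew in RPMI-1640 with 10% FBS. The series asked which transcripts differ between isogenic cells with and without these IDH mutations.

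Genotype and GM-CSF changed together in every comparison with Parental, and their parts cannot be told apart, whereas the 4 edited lines shared their medium. Neither whether the 3 libraries of a group came from separate cultures nor how many clones a line represents is given in the labels, so the spread behind the p-values is that of these libraries and may be technical. With 3 libraries a side the smallest exact p is 0.1, and each adjusted p leans on a spread that limma shares across groups and genes. Of the defining genes of TF-1 listed, KLF1, CD33, CD34, KIT and CSF2RB were detected, while GATA1, CSF2RA and IL3RA, each on 2 rows of the table, were listed at 0 in every library. Of 14 markers of lymphoid, myeloid, epithelial and stromal cells, 10 were under 1 TPM in every group mean, among them the T-cell gene CD3E, near 0 in every library, and the B-cell gene MS4A1, listed at 0. CD79A is on 2 rows listed at 0 in every library, like GATA1, so its 0 is not read as absence. CD3D (2.04 TPM in IDH2R140Q to 68.4 TPM in Parental), CSF1R (0.877 TPM in IDH2R140W to 19.6 TPM in IDH2R172K), KRT8 and KRT18 were higher and differed between groups, and their part in the results was not tested. Libraries correlated within their groups with Pearson's r of 0.974 to 0.99 across genes, which are not independent, and 15 of 15 lay closest to a library of their own group. Ribosomal protein genes held more of the TPM in IDH2R140W replicate 3 (21.9%) and in Parental replicate 2 (21.0%) than in the remaining libraries (13.7% to 18.4%). Parental replicate 2 also held the lowest value among Parental libraries of 8 members, and results that turn on it are given with and without it.

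Promoters are shown for 5 members that were highest in IDH1R132H, to set beside their levels the regulatory letters they carry. In RefSeq (GRCh38.p14), promoters of 300 bases, 250 before and 50 after a start, matched 7 of the 10 members with 11 promoters in all. DUSP4, DUSP5 and ETV5 are not shown. Each sequence is written 5′ to 3′ on the strand of the gene. Capitals mark the CArG box bound by serum response factor, the ETS motif CCGGAA and TGACG, the core of the cAMP response element, each searched on both strands.
DUSP6 promoter, chr12:89352452-89352751, minus strand: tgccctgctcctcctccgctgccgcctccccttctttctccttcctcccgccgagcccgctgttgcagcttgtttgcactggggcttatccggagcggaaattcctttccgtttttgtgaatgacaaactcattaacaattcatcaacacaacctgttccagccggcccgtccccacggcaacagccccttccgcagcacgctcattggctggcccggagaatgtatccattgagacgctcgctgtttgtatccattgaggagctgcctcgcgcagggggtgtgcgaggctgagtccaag
SPRY1 promoter, chr4:123398136-123398435, plus strand: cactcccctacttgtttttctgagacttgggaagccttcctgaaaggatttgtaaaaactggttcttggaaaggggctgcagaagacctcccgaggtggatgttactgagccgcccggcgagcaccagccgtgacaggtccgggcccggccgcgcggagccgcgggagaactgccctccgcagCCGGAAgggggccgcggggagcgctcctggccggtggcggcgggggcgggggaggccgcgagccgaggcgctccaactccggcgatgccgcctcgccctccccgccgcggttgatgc
SPRY2 promoter, chr13:80341077-80341376, minus strand: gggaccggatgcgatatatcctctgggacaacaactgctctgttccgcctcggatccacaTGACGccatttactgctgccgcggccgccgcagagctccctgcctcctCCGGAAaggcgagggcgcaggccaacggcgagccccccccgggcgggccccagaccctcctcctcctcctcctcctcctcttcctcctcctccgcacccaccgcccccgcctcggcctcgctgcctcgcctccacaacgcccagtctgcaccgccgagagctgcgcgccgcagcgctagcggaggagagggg
SPRY4 promoter, chr5:142324198-142324497, minus strand: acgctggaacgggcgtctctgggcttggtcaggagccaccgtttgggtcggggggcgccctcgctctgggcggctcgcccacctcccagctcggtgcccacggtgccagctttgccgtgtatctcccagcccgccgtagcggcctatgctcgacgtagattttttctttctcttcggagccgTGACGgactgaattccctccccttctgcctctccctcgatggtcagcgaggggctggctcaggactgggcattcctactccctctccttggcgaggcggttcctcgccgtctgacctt
EGR1 promoter, chr5:138465229-138465528, plus strand: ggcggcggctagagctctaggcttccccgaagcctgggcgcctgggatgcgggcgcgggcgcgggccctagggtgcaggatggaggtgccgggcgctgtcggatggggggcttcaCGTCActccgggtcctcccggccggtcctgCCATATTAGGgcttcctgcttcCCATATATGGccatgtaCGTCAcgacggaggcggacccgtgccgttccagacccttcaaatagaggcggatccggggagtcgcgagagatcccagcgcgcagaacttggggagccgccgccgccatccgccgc

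Of the 7 members with a promoter searched, EGR1 was the one that held a CArG box, and it held 2, at 105 to 96 and 83 to 74 bases before the start. Among all 35116 promoters of that length, 1.29% held one. The ETS motif lay in 1 promoter each of SPRY1 and SPRY2 and in 17.25% of all promoters, and TGACG in promoters of EGR1, SPRED2, SPRY2 and SPRY4 and in 24.55% of all. The AP-1 motif TGANTCA lay in a promoter of SPRED2 and in 7.71% of all, and the EGR motif GCGGGGGCG, left in lower case above, in promoters of SPRY1 and SPRY2 and in 5.07% of all. No matches of different motifs overlapped in the promoters printed. None of the 5 motifs was found in the DUSP6 promoter, which says only that these letters are not in this window.

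In IDH1R132H, 6 of the 9 members that reached 1 TPM in Parental were higher than in Parental at a limma adjusted p under 0.05, and none was lower. With DUSP4 the count was 7 of 10. DUSP4 and DUSP6 were also at least 2-fold apart, and the rest of the 7, DUSP5, SPRY1, SPRY2, SPRY4 and EGR1, differed by less. Differences here and below are between group means of log2(TPM + 1), where the pseudocount of 1 understates changes of genes at low level. Across all genes tested, 30.1% were higher and 13.7% lower at that p, and 10.8% passed it in either direction and were at least 2-fold apart. The members' median difference was 0.54 and that of all genes 0.16. Without Parental replicate 2 the count, with DUSP4 included, was 5 of 10 higher and 1 lower, since SPRY4 and EGR1 no longer passed and SPRED1 did. The share of all genes at any fold was not computed without that library, so this count is not read as a result about the members.

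In the IDH2 lines 1 or 2 members were higher than in Parental, and DUSP4 was 1 of them in each: without it, 0 of 9 were higher in IDH2R140Q, 1 in IDH2R140W (DUSP6) and 1 in IDH2R172K (DUSP5). In IDH2R140Q 1 member was higher and 2 were lower at an adjusted p under 0.05, beside 33.3% and 11.1% of all genes, and 0 were also 2-fold apart, beside 10% of all genes in either direction. In IDH2R140W 2 were higher and 3 were lower, beside 13.3% and 10.7%, and 0 were also 2-fold apart, beside 4.78% in either direction. In IDH2R172K 2 were higher and 0 were lower, beside 25.5% and 13.5%, and DUSP4 alone was also 2-fold apart, beside 9.31% of all genes in either direction. The members' medians were −0.16, −0.16 and −0.12 in IDH2R140Q, IDH2R140W and IDH2R172K, where all genes stood at 0.23, 0.03 and 0.13. After median-ratio scaling the counts were 1 higher and 5 lower in IDH2R140Q and 2 higher and 4 lower in IDH2R172K, and without Parental replicate 2 they were 1 and 4 in IDH2R140Q and 2 and 2 in IDH2R172K. In a fit of only the libraries compared they were 1 higher and 0 lower in IDH2R140W. Shares of all genes at any fold were not computed under these alternatives. Counts under them are therefore not read as results about the members. The 4 comparisons share the Parental libraries and are not independent of each other.

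**Figure D1:**
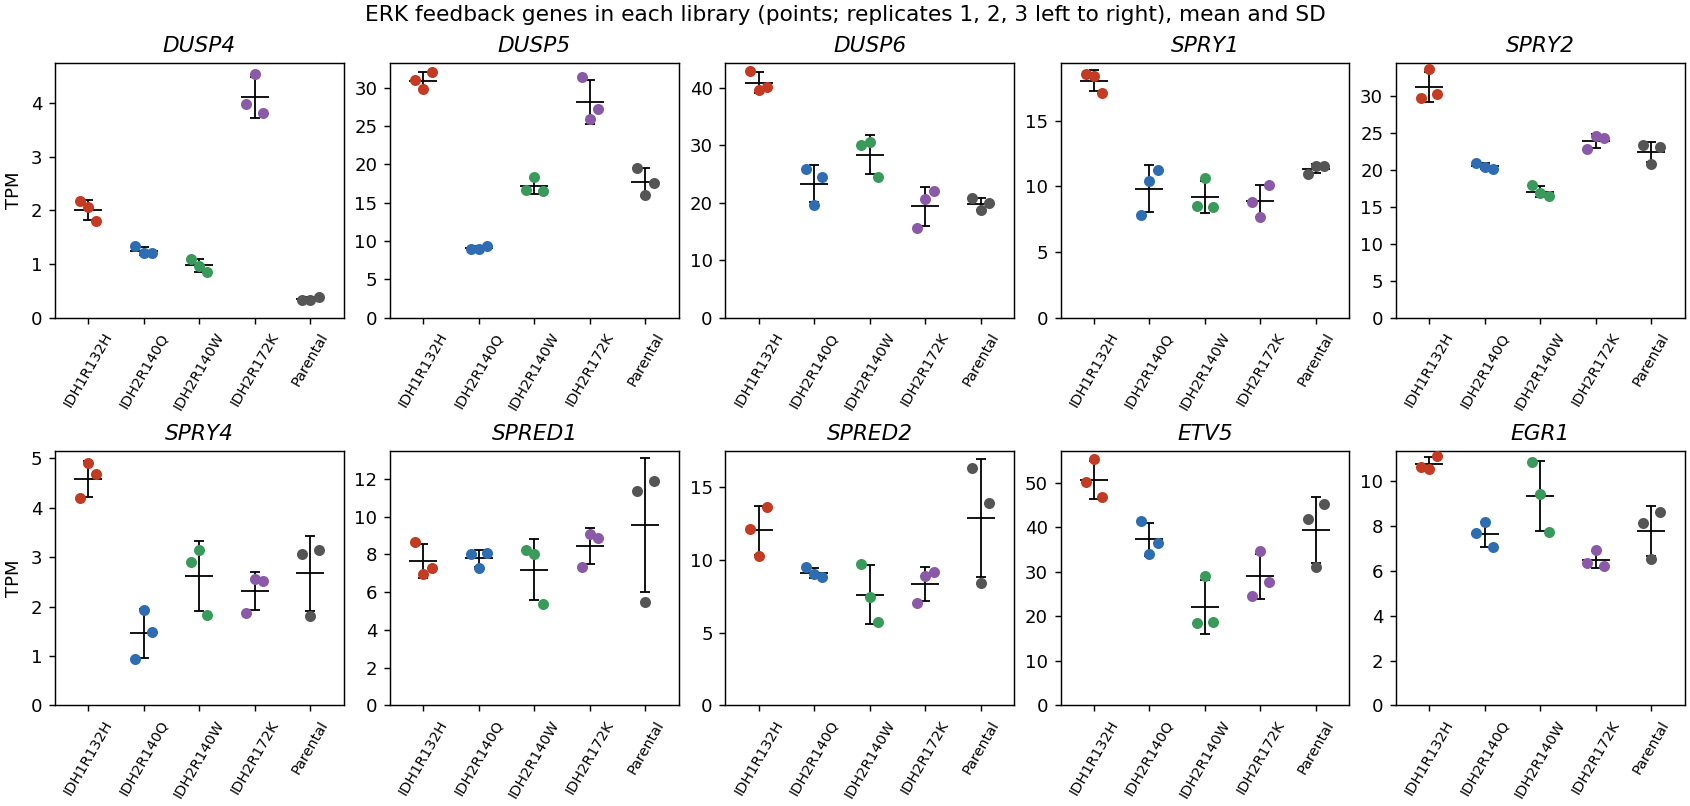
TPM of the 10 members in each library, on linear axes that start at 0, with the 4 edited lines left of Parental. Points are libraries, and black bars are group means with their SD (n = 3 libraries each). DUSP4 spans 0.33 to 4.53 TPM with Parental lowest, and IDH1R132H has the highest mean for DUSP5, DUSP6, SPRY1, SPRY2, SPRY4, ETV5 and EGR1.

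DUSP4 (ENSG00000120875, hg38 chromosome 8, 29333064 to 29350668, minus strand) encodes a phosphatase that acts on ERK in the nucleus. It was the least expressed member in Parental, and since it entered the test through the lines where it was high, its differences from Parental are given as a description. It stood at 2.17, 2.06 and 1.81 TPM in IDH1R132H, at 1.33, 1.21 and 1.2 TPM in IDH2R140Q, at 1.10, 0.97 and 0.86 TPM in IDH2R140W and at 3.97, 4.53 and 3.81 TPM in IDH2R172K, against 0.33, 0.33 and 0.39 TPM in Parental. Every edited library lay above every Parental library, those of IDH2R172K highest and those of IDH2R140W lowest among the edited lines.

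Means of DUSP4 were 4.10 ± 0.378 TPM in IDH2R172K and 0.350 ± 0.0346 TPM in Parental (SD, n = 3 libraries each), a ratio of 11.7. The log2 difference was 1.92 (95% interval 1.64 to 2.20). In IDH1R132H it was 1.16 (0.88 to 1.44), with a ratio of mean TPM of 5.75. It was less than 2-fold on this scale in IDH2R140Q (0.73) and in IDH2R140W (0.55), although the mean TPM of DUSP4 was 3.56 and 2.79 times that in Parental. With no filter on low values, so that DUSP4 was tested whatever its level, the limma adjusted p was 1.4e-06 in IDH2R172K, 8.31e-05 in IDH1R132H, 0.0029 in IDH2R140Q and 0.0307 in IDH2R140W. With a pseudocount of 0.1 the differences in IDH2R140Q and IDH2R140W were 1.58 and 1.25, and after quantile normalisation the one in IDH1R132H was 0.96, below 2-fold. The Parental level was under 1 TPM, so the size of each of these ratios depends on a small absolute level.

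DUSP5 (ENSG00000138166, chromosome 10, 110497838 to 110511544, plus strand) encodes another nuclear phosphatase, selective for ERK. It was higher in 2 edited lines and lower in another. Its values were 30.95, 29.76 and 32.02 TPM in IDH1R132H, 31.40, 25.88 and 27.15 TPM in IDH2R172K, 16.65, 18.35 and 16.55 TPM in IDH2R140W and 9.02, 8.95 and 9.38 TPM in IDH2R140Q, against 19.57, 16.02 and 17.53 TPM in Parental. The IDH1R132H and IDH2R172K libraries all lay above the Parental ones, the IDH2R140Q libraries all lay below them, and those of IDH2R140W overlapped with them.

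DUSP5 rose in IDH1R132H (log2 difference 0.77, 95% interval 0.57 to 0.98, limma adjusted p = 2.19e-05) and in IDH2R172K (0.64, 0.43 to 0.85, adjusted p = 0.000138). It fell in IDH2R140Q (−0.88, −1.09 to −0.67, adjusted p = 7.53e-06), where the means were 9.12 ± 0.231 TPM against 17.7 ± 1.78 TPM in Parental. That fall passed 2-fold after median-ratio scaling (−1.13, adjusted p = 3.65e-07) and quantile normalisation (−1.18, 3.94e-07). In IDH2R140W DUSP5 did not pass (−0.04, −0.25 to 0.17, adjusted p = 0.831). Other coding genes tested within 5 Mb of DUSP5, 21 in number, had a median difference of −0.20 in IDH2R140Q, where 15 of them were below 0, and of 0.47 in IDH2R172K, where 3 were, while all coding genes stood at 0.25 and 0.14. The 417 other coding genes tested on chromosome 10 had medians of −0.16 in IDH2R140Q and 0.19 in IDH2R172K. The part of this neighbourhood or of the chromosome in the DUSP5 differences was not tested.

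DUSP6 (ENSG00000139318, chromosome 12, 89347232 to 89353271, minus strand) encodes the cytoplasmic phosphatase selective for ERK that is often used as a readout of the pathway. It was highest in IDH1R132H. It stood at 42.93, 39.58 and 40.10 TPM there, at 25.82, 19.68 and 24.44 TPM in IDH2R140Q, at 30.13, 30.53 and 24.46 TPM in IDH2R140W and at 15.55, 20.66 and 22.03 TPM in IDH2R172K, against 20.80, 18.73 and 19.96 TPM in Parental. The IDH1R132H libraries lay apart from those of every other group, the IDH2R140W libraries lay above Parental by less, and the remaining lines overlapped with Parental.

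The mean of DUSP6 was 40.9 ± 1.80 TPM in IDH1R132H, against 19.8 ± 1.04 TPM in Parental (log2 difference 1.01, 95% interval 0.72 to 1.29, limma adjusted p = 3.63e-05). This difference sat at the 2-fold limit: it was 0.81 after median-ratio scaling (adjusted p = 6.57e-05) and after quantile normalisation (6.4e-05), 0.97 without IDH1R132H replicate 1 (0.000341) and 0.97 without Parental replicate 2 (0.000181). DUSP6 rose by less in IDH2R140W (0.49, 0.20 to 0.78, adjusted p = 0.0159), a call lost without IDH2R140W replicate 1 (0.44, 0.0601) or replicate 2 (0.44, 0.0657) and in a fit of only the libraries compared (0.0555). It did not pass in IDH2R140Q (0.22, −0.07 to 0.50, adjusted p = 0.209), where the sign turned after median-ratio scaling (−0.04), nor in IDH2R172K (−0.04, −0.33 to 0.25, adjusted p = 0.827).

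Sprouty proteins are inhibitors of receptor and RAS signalling, and the 3 detected here were all higher in IDH1R132H than in Parental. SPRY1 (ENSG00000164056, chromosome 4, 123396795 to 123403760, plus strand) stood at 18.57, 18.43 and 17.13 TPM in IDH1R132H, at 7.82, 10.42 and 11.25 TPM in IDH2R140Q, at 8.49, 10.62 and 8.45 TPM in IDH2R140W and at 8.83, 7.70 and 10.10 TPM in IDH2R172K, against 10.95, 11.54 and 11.53 TPM in Parental. The IDH1R132H libraries stood clear above all others, and the IDH2 lines lay at or below the Parental range. SPRY1 rose in IDH1R132H (18.04 ± 0.794 TPM against 11.3 ± 0.338 TPM in Parental, log2 difference 0.62, 95% interval 0.33 to 0.92, limma adjusted p = 0.00213). It did not pass in IDH2R140Q (−0.20), IDH2R140W (−0.28) or IDH2R172K (−0.33), with adjusted p of 0.251, 0.161 and 0.0735. After median-ratio scaling it passed in IDH2R140Q (−0.45, adjusted p = 0.0188) and IDH2R172K (−0.47, 0.0138), and in IDH2R172K also without IDH2R172K replicate 3 (0.0493) or IDH2R140Q replicate 1 (0.0458).

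SPRY2 (ENSG00000136158, chromosome 13, 80335976 to 80340951, minus strand) stood at 29.72, 33.56 and 30.25 TPM in IDH1R132H, at 20.94, 20.37 and 20.15 TPM in IDH2R140Q, at 17.89, 16.87 and 16.43 TPM in IDH2R140W and at 22.84, 24.57 and 24.33 TPM in IDH2R172K, against 23.36, 20.78 and 23.05 TPM in Parental. All IDH1R132H libraries lay above the Parental range, all of IDH2R140W below it, and the other lines overlapped with it. SPRY2 rose in IDH1R132H (log2 difference 0.46, 95% interval 0.29 to 0.63, limma adjusted p = 0.000425) and fell in IDH2R140W (−0.37, −0.55 to −0.20, adjusted p = 0.00406), a call lost in a fit of only the libraries compared (0.0827). It did not pass in IDH2R140Q (−0.12, adjusted p = 0.245) or in IDH2R172K (0.09, adjusted p = 0.395), and after median-ratio scaling it passed in IDH2R140Q (−0.38, 0.00093) and its sign turned in IDH2R172K (−0.06). The 13 other coding genes tested within 5 Mb of SPRY2 had a median difference of 0.87 in IDH1R132H, against 0.19 for all coding genes, and its part in the SPRY2 difference was not tested.

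SPRY4 (ENSG00000187678, chromosome 5, 142310427 to 142326455, minus strand) was the least expressed Sprouty gene. It stood at 4.19, 4.90 and 4.68 TPM in IDH1R132H, at 0.94, 1.94 and 1.49 TPM in IDH2R140Q, at 2.91, 3.14 and 1.82 TPM in IDH2R140W and at 1.86, 2.55 and 2.52 TPM in IDH2R172K, against 3.06, 1.80 and 3.15 TPM in Parental. Only the IDH1R132H libraries stood apart from Parental, whose replicate 2 was well below the rest. SPRY4 rose in IDH1R132H (log2 difference 0.63, 95% interval 0.18 to 1.08, limma adjusted p = 0.0254), a call lost without Parental replicate 2 (0.44, 0.116) and without IDH1R132H replicate 2 (0.0735) or replicate 3 (0.0644), and also with no filter on low values (0.0688) and after quantile normalisation (0.0638). It fell in IDH2R140Q (−0.58, −1.03 to −0.13, adjusted p = 0.0372), although 1 IDH2R140Q library overlapped with the Parental range. That call was lost without IDH2R140Q replicate 1 (−0.42, 0.157) or replicate 3 (0.0707) and without Parental replicate 1 (0.106) or replicate 3 (0.12), and also with no filter on low values (0.0943) and in a fit of only the libraries compared (0.095). In IDH2R140W (−0.02, adjusted p = 0.971) and IDH2R172K (−0.13, adjusted p = 0.641) it did not pass. The annotation places SPRY4-AS1 on the opposite strand over SPRY4, and whether the counting used strand is not given in the sources used here.

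**Figure D2:**
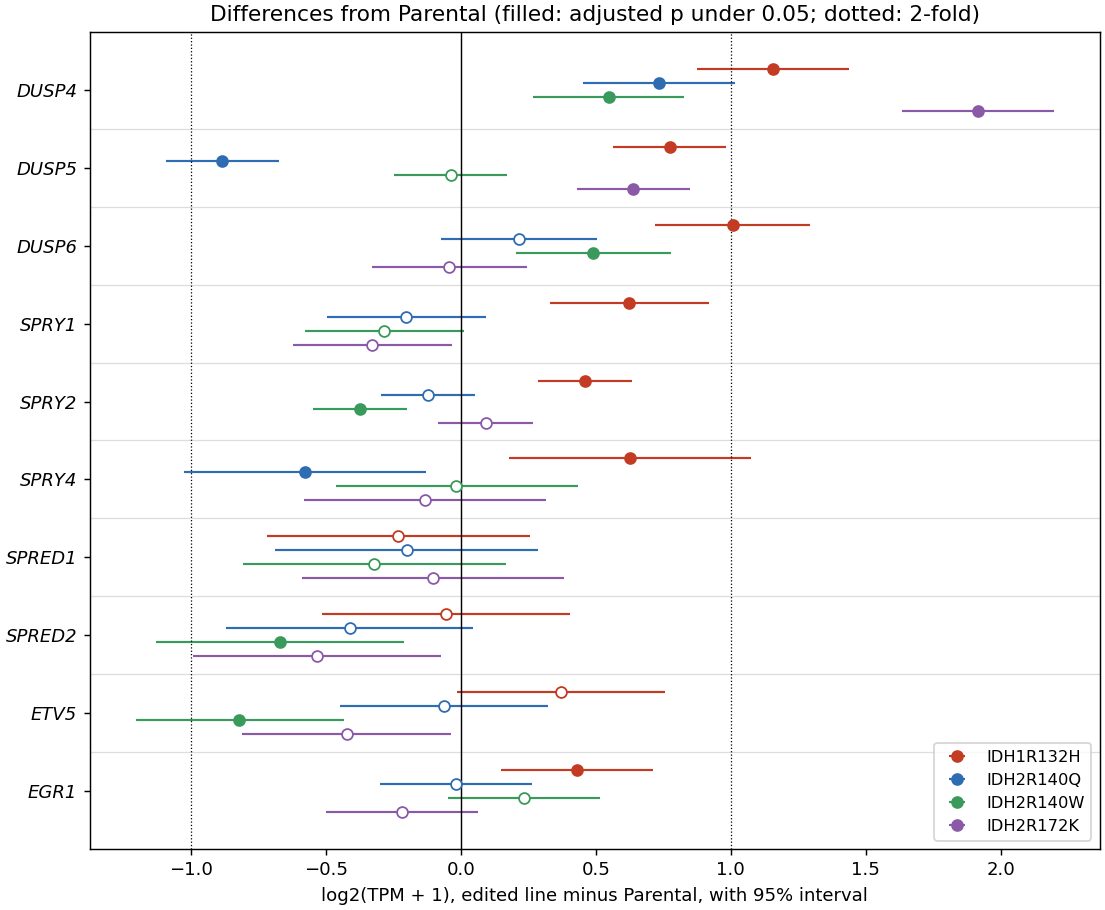
Differences of the 10 members from Parental on the log2(TPM + 1) scale, with 95% limma intervals, for each edited line. Filled points have an adjusted p under 0.05 and dotted lines mark 2-fold. DUSP4 lies above 0 in all 4 lines, from 0.55 in IDH2R140W to 1.92 in IDH2R172K, and DUSP5 lies above 0 in IDH1R132H and below 0 in IDH2R140Q.

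SPRED proteins are relatives of the Sprouty proteins, and neither of their 2 genes was higher than in Parental in any edited line. SPRED1 (ENSG00000166068, chromosome 15, 38252326 to 38357249, plus strand) stood at 8.66, 6.95 and 7.30 TPM in IDH1R132H, at 8.01, 7.28 and 8.08 TPM in IDH2R140Q, at 8.22, 8.02 and 5.36 TPM in IDH2R140W and at 7.34, 9.11 and 8.87 TPM in IDH2R172K, against 11.34, 5.48 and 11.88 TPM in Parental. Parental replicate 2 lay below all but 1 edited library, while Parental replicates 1 and 3 lay above all of them. SPRED1 passed in none of the 4 lines, with differences of −0.32 to −0.10 and limma adjusted p of 0.355 to 0.750. Without Parental replicate 2 it was lower in IDH1R132H (−0.55, adjusted p = 0.0179), IDH2R140Q (−0.52, 0.0246) and IDH2R140W (−0.64, 0.0124), and did not pass in IDH2R172K (−0.42, 0.0644). With library weights it was lower in all 4 lines (−0.52 to −0.40, adjusted p = 0.00109 to 0.0148).

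SPRED2 (ENSG00000198369, chromosome 2, 65310851 to 65432637, minus strand) stood at 12.15, 10.27 and 13.63 TPM in IDH1R132H, at 9.48, 9 and 8.84 TPM in IDH2R140Q, at 9.70, 7.43 and 5.70 TPM in IDH2R140W and at 7.01, 8.86 and 9.16 TPM in IDH2R172K, against 16.33, 8.41 and 13.89 TPM in Parental. Every edited line overlapped with Parental, again because of the low Parental replicate 2. SPRED2 fell in IDH2R140W (−0.67, 95% interval −1.13 to −0.21, limma adjusted p = 0.035), a call lost without Parental replicate 1 (adjusted p = 0.136) or replicate 3 (0.109) and without IDH2R140W replicate 2 (0.0827) or replicate 3 (0.113), and also with no filter on low values (0.0839) and in a fit of only the libraries compared (0.196). It did not pass in IDH1R132H (−0.05, adjusted p = 0.856), IDH2R140Q (−0.41, 0.133) or IDH2R172K (−0.53, 0.063). Without Parental replicate 2 it was lower in IDH2R140Q (−0.67, adjusted p = 0.0115), IDH2R140W (−0.93, 0.00238) and IDH2R172K (−0.79, 0.00455), and in IDH1R132H it did not pass (−0.31, 0.205). After median-ratio scaling it was also lower in IDH2R140Q (−0.65, 0.00851) and IDH2R172K (−0.68, 0.00696).

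ETV5, an ETS-family transcription factor of the PEA3 group, was the most abundant member in Parental. It (ENSG00000244405, chromosome 3, 186046308 to 186110318, minus strand) stood at 50.10, 55.23 and 46.74 TPM in IDH1R132H, at 41.43, 34.02 and 36.36 TPM in IDH2R140Q, at 18.39, 28.98 and 18.77 TPM in IDH2R140W and at 24.63, 34.61 and 27.72 TPM in IDH2R172K, against 41.78, 31.04 and 45.13 TPM in Parental. The IDH1R132H libraries all lay above the Parental range and the IDH2R140W libraries all below it, with the rest overlapping.

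ETV5 fell in IDH2R140W (22.05 ± 6.01 TPM against 39.3 ± 7.36 TPM in Parental, log2 difference −0.82, 95% interval −1.21 to −0.43, limma adjusted p = 0.0041), a call lost in a fit of only the libraries compared (0.0646), while the fall passed 2-fold without IDH2R140W replicate 2 (−1.02, 0.000728). In IDH1R132H the difference of 0.37 (−0.01 to 0.76) did not pass (adjusted p = 0.110) although the groups did not overlap. In IDH2R140Q it was −0.06 (adjusted p = 0.800). In IDH2R172K it was −0.42 (adjusted p = 0.0766), and it passed without Parental replicate 2 (−0.58, 0.0226), IDH2R172K replicate 2 (−0.55, 0.0419) or IDH2R140W replicate 2 (0.0368), and after median-ratio scaling (−0.58, 0.00859). ETV5 shares 4651 bases with DGKG on the same strand (chromosome 3, 186105668 to 186110318), so reads there could be assigned to either gene. DGKG stood at 22.09, 19.68 and 21.83 TPM in IDH1R132H, at 19.88, 15.02 and 16.26 TPM in IDH2R140Q, at 8.69, 11.42 and 5.27 TPM in IDH2R140W and at 7.53, 6.42 and 7.54 TPM in IDH2R172K, against 13.16, 6.82 and 11.06 TPM in Parental. It was thus highest in IDH1R132H, as ETV5 was, and its part in the ETV5 values was not tested. The 44 other coding genes tested within 5 Mb of ETV5 had a median difference of −0.33 in IDH2R140W, where 36 were below 0. In IDH1R132H their median was 0.452, where 7 were below 0. All coding genes stood at 0.035 in IDH2R140W and 0.188 in IDH1R132H. The part of this neighbourhood in the ETV5 differences was not tested.

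EGR1, a zinc-finger transcription factor induced within minutes of ERK activation, whose promoter above carries both CArG boxes, differed by less than 2-fold between any pair of groups. It (ENSG00000120738, chromosome 5, 138465490 to 138469315, plus strand) stood at 10.63, 10.54 and 11.11 TPM in IDH1R132H, at 7.67, 8.17 and 7.05 TPM in IDH2R140Q, at 10.86, 9.41 and 7.73 TPM in IDH2R140W and at 6.33, 6.94 and 6.23 TPM in IDH2R172K, against 8.15, 6.52 and 8.64 TPM in Parental. Of the 4 lines, IDH1R132H was the one that lay clear of Parental. EGR1 rose there (log2 difference 0.43, 95% interval 0.15 to 0.71, limma adjusted p = 0.0164), a call lost after median-ratio scaling (0.25, 0.0619) and quantile normalisation (0.0875), without Parental replicate 2 (0.32, 0.0711) and without IDH1R132H replicate 3 (0.0528). It did not pass in IDH2R140Q (−0.02, adjusted p = 0.929), IDH2R140W (0.23, 0.232) or IDH2R172K (−0.22, 0.205), and in IDH2R172K it passed after median-ratio scaling (−0.36, 0.0127).

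The scaling bears on the whole comparison with Parental. After median-ratio scaling, which brings the median gene of each comparison to about 0 from the values given above, the members' medians were 0.35 for IDH1R132H, −0.41 for IDH2R140Q, −0.21 for IDH2R140W and −0.24 for IDH2R172K. Calls at 2-fold among all genes were then split 814 higher and 681 lower in IDH1R132H, where they were 1152 and 460 before, and likewise 713 and 581 in IDH2R140Q (1125 and 367), 395 and 344 in IDH2R140W (399 and 312) and 754 and 629 in IDH2R172K (946 and 440).

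The edited lines were next compared with one another, in the same medium, over 6 pairs of lines and so 60 member differences. Of these, 32 passed at a limma adjusted p under 0.05 and 7 were also at least 2-fold. Most of them set IDH1R132H above an IDH2 line. Of the 30 differences that involve IDH1R132H, 21 passed with IDH1R132H higher and 1 with it lower. In those pairs 28.5%, 35.6% and 32.5% of all genes passed in either direction. Among the IDH2 lines 10 of the 30 passed, near the 32.9%, 31% and 31.2% of all genes in those pairs. The pairs share libraries, so these counts are not independent. Of the 32, 24 passed under every alternative run, and the 8 that did not are named below, as are those that passed only under another scaling or without a library.

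Against IDH2R140Q, 7 members were higher in IDH1R132H and 0 lower, beside 12.1% and 16.4% of all genes, and 2 were also 2-fold apart, beside 5.5% in either direction. Against IDH2R140W 8 were higher and 0 lower, beside 23.7% and 11.9%, with 1 also 2-fold apart, beside 7.86%. Against IDH2R172K 6 were higher and 1 lower, beside 18.3% and 14.2%, with 1 also 2-fold apart, beside 7.49%. The members' medians were 0.51, 0.63 and 0.56 in these pairs, and those of all genes were −0.05, 0.12 and 0.03.

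Among the phosphatases, DUSP5 was higher in IDH1R132H than in IDH2R140Q by 1.66 (95% interval 1.45 to 1.87, limma adjusted p = 3.9e-08). DUSP6 was higher in IDH1R132H than in each IDH2 line, by 0.79 against IDH2R140Q (adjusted p = 0.000488), 0.52 against IDH2R140W (0.008) and 1.05 against IDH2R172K (3.63e-05), the last falling under 2-fold without IDH2R172K replicate 1 (0.91). DUSP4 was lower in IDH1R132H than in IDH2R172K (−0.76, −1.04 to −0.48, adjusted p = 0.00048) and higher than in IDH2R140W (0.61, 0.00236) and IDH2R140Q (0.42, 0.0258), the last lost without IDH1R132H replicate 1 (0.0893) or 2 (0.067) or IDH2R140Q replicate 2 (0.0694) or 3 (0.0726), with a pseudocount of 0.1 (0.0511) and with no filter on low values (0.085). DUSP5 was also higher in IDH1R132H than in IDH2R140W (0.81, 1.84e-05).

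Each Sprouty gene was higher in IDH1R132H than in each IDH2 line. SPRY1 was higher in IDH1R132H than in IDH2R140Q (0.83, limma adjusted p = 0.000422), IDH2R140W (0.91, 0.00015) and IDH2R172K (0.95, 0.000108). SPRY2 was higher by 0.58, 0.83 and 0.37 (adjusted p = 0.000106, 2.6e-06 and 0.00311) against the same lines, and SPRY4 by 1.21, 0.64 and 0.76 (0.000593, 0.0275 and 0.012). The libraries did not overlap in any of these comparisons. SPRY4 lost the call against IDH2R140W without IDH2R140W replicate 3 (0.121) or IDH1R132H replicate 2 (0.0805) or 3 (0.0706) and with no filter on low values (0.0738), and against IDH2R172K without IDH2R172K replicate 1 (0.0521). SPRED1 passed in 0 of the 6 pairs of edited lines, with differences of −0.13 to 0.22, and SPRED2 in 1, where it was higher in IDH1R132H than in IDH2R140W (0.61, adjusted p = 0.0376), a call lost without IDH1R132H replicate 1 (0.0888) or 3 (0.126) or IDH2R140W replicate 2 (0.0757) or 3 (0.15), with no filter on low values (0.0867) and in a fit of only the libraries compared (0.0563). Against IDH2R172K (0.48, 0.106) SPRED2 passed without Parental replicate 2 (0.0361), and in a fit of only the libraries compared it passed there (0.0346) and against IDH2R140Q (0.36, 0.0412).

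Of the transcription factors, ETV5 was higher in IDH1R132H than in IDH2R140W (1.19, 95% interval 0.81 to 1.58, limma adjusted p = 0.000145) and IDH2R172K (0.80, 0.41 to 1.18, adjusted p = 0.00353). Against IDH2R140Q it did not pass (0.44, adjusted p = 0.0869) although the libraries did not overlap, and it passed after median-ratio scaling (0.50, 0.0251), in a fit of only the libraries compared (0.00764) and without IDH2R140W replicate 2 (0.0418). EGR1 was higher in IDH1R132H than in IDH2R140Q (0.45, adjusted p = 0.0196) and IDH2R172K (0.65, 0.00167). The call against IDH2R140Q was lost, at an adjusted p of 0.0504 to 0.0767, without replicate 1 or 3 of either line.

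**Figure D3:**
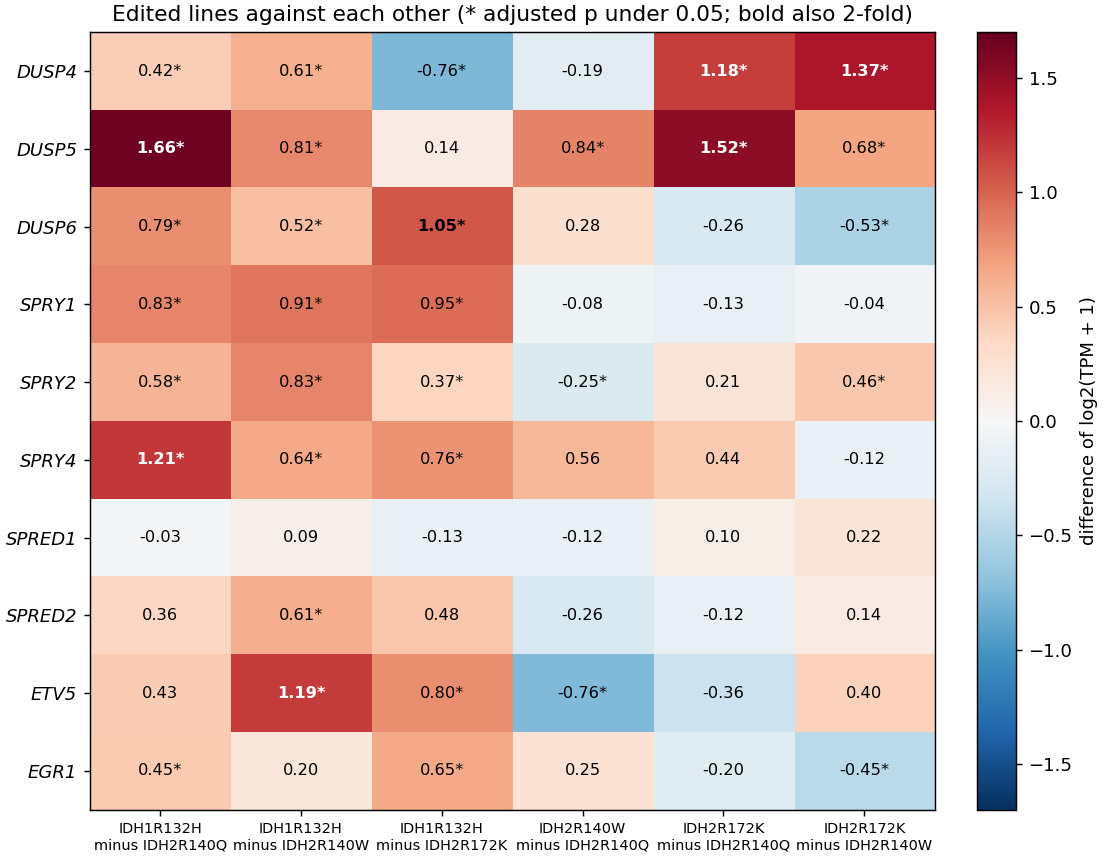
Differences on the log2(TPM + 1) scale between pairs of edited lines for the 10 members, the first named line minus the second. Stars mark a limma adjusted p under 0.05, and bold values are also at least 2-fold. The first 3 columns, with IDH1R132H on top, are mostly above 0, and the exception that passed is DUSP4 against IDH2R172K at −0.76.

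Among the IDH2 lines, the differences of at least 2-fold were in DUSP4 and DUSP5. In IDH2R172K against IDH2R140Q, 2 members were higher and 0 lower, beside 11.4% and 19.7% of all genes. Both were also 2-fold apart, beside 7.57% in either direction: DUSP4 (1.18, 95% interval 0.90 to 1.46, limma adjusted p = 9.89e-06) and DUSP5 (1.52, 1.31 to 1.73, adjusted p = 5.33e-08). SPRY2 (0.21, 0.0624) also passed as higher after median-ratio scaling (0.31, 0.00412), in a fit of only the libraries compared (0.0404) and without Parental replicate 2 (0.0412), and SPRY4 (0.44, 0.129) after quantile normalisation (0.52, 0.0441). In IDH2R172K against IDH2R140W, 3 members were higher and 2 lower, beside 19.2% and 12% of all genes. DUSP4 (1.37, adjusted p = 2.71e-06) was also 2-fold apart, beside 6.86%, while DUSP5 (0.68, 0.000114) and SPRY2 (0.46, 0.000607) were higher and DUSP6 (−0.53, 0.00773) and EGR1 (−0.45, 0.0177) lower by less. The EGR1 call was lost without IDH2R140W replicate 1 (0.0772) or IDH2R172K replicate 1 (0.0509) or 3 (0.057), and those of EGR1 and DUSP6 in a fit of only the libraries compared (0.0796 and 0.0517). ETV5 (0.40, 0.111) passed as higher without IDH2R140W replicate 2 (0.60, 0.0156).

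IDH2R140W and IDH2R140Q carry different substitutions of the same residue. In IDH2R140W DUSP5 was higher (0.84, 95% interval 0.64 to 1.05, limma adjusted p = 1.84e-05) and ETV5 (−0.76, −1.14 to −0.37, adjusted p = 0.00545) and SPRY2 (−0.25, −0.43 to −0.08, adjusted p = 0.0296) lower than in IDH2R140Q. These were the 1 higher and 2 lower members that passed, beside 7.91% and 25% of all genes, and 0 were also 2-fold apart, beside 5.69%. After median-ratio scaling the count turned to 4 higher and 1 lower, and the share of all genes at any fold was not computed there. DUSP5 (1.04), DUSP6 (0.48, 0.00638), EGR1 (0.44, 0.00521) and SPRY4 (0.69, 0.0115) were higher and ETV5 (−0.55, 0.0165) lower. SPRY4 (0.56, 0.0528 before scaling) also passed without IDH2R140W replicate 3 (0.0239), IDH2R140Q replicate 2 (0.0369) or Parental replicate 2 (0.0315). The SPRY2 call was lost after that scaling (−0.04, 0.684), in a fit of only the libraries compared (0.0798) and, at an adjusted p of 0.0608 to 0.089, without any IDH2R140Q replicate or without IDH2R140W replicate 2 or 3. These 2 lines had DUSP5 at 17.2 ± 1.01 TPM and 9.12 ± 0.231 TPM (IDH2R140W and IDH2R140Q, SD, n = 3 libraries each).

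For members whose group means spanned at least 1 on the log2 scale, the 2 genes with the nearest profile over the 5 group means were looked up, by the root mean square difference of centred log2(TPM + 1). For DUSP4 they were ZNF256 (0.114) and RP11-53B2.6 (0.131), and for DUSP5 RP13-104F24.1 (0.132) and UNC5B (0.133). For DUSP6 they were NLRP12 (0.0444) and TUBB3 (0.0496, summed over 2 rows), for SPRY4 PTGS2 (0.0694) and HRC (0.0840), and for ETV5 CEBPB (0.0710) and FAR2 (0.0786). With 5 means compared among 14881 genes, close matches are easily found, and no other member of the 10 was among them.

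The other 3 lists place these genes in their pathway. Of 24 immediate early genes, transcription factors and RNA regulators induced directly by ERK and other kinases, 21 were tested. In IDH1R132H 6 were higher than in Parental at an adjusted p under 0.05 and at least 2-fold and 0 lower, in IDH2R140Q 2 and 0, in IDH2R140W 6 and 0, and in IDH2R172K 1 and 0, where 10.8%, 10%, 4.78% and 9.31% of all genes passed in either direction. The counts in IDH2R140Q and IDH2R172K, 2 and 1 of 21, lie near or under those shares. EGR3 and NR4A2, both among the 6 in IDH2R140W, reached 1 TPM in no Parental library. They entered the test through edited lines, so that count of 6 includes genes admitted where they were high. The median differences of the list were 0.74, 0.32, 0.24 and 0.08, and those of all genes 0.16, 0.23, 0.03 and 0.13. EGR2 and KLF4 were under the level for testing, and IER3, on 6 rows of the table, was listed at 0 in every library, which is not read as absence.

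In IDH1R132H the AP-1 subunit JUN stood at 46.2 ± 2.07 TPM, against 22.4 ± 2.26 TPM in Parental (log2 difference 1.02, limma adjusted p = 4.8e-06), KLF6, a zinc-finger factor, at 21.8 ± 1.38 TPM against 7.59 ± 0.966 TPM (1.42, 7.83e-06) and ZFP36, which destabilises AU-rich mRNAs, at 22.6 ± 0.626 TPM against 9.73 ± 0.195 TPM (1.13, 1.38e-05). After median-ratio scaling JUN (0.82) and ZFP36 (0.95) were under 2-fold. In IDH2R140W the nuclear receptor NR4A1 stood at 11.6 ± 0.283 TPM against 3.49 ± 0.301 TPM in Parental (1.49, adjusted p = 4.21e-06). EGR3, a relative of EGR1, stood there at 3.96 ± 1.16 TPM against 0.593 ± 0.117 TPM in Parental (1.61). Since EGR3 entered the test through edited lines, its difference from Parental is given as a description. FOSB, an AP-1 subunit, was higher than in Parental (2.61 ± 0.982 TPM) in all 4 lines, by 1.60 in IDH1R132H (adjusted p = 7.62e-05), 1.35 in IDH2R140Q (adjusted p = 0.000355), 1.27 in IDH2R140W (0.00105) and 1.08 in IDH2R172K (0.00211), the last falling under 2-fold after median-ratio scaling (0.96). ATF3, a stress-responsive factor, stood at 13.75 ± 2.96 TPM in IDH1R132H, 7.31 ± 1.37 TPM in IDH2R140Q and 6.12 ± 1.03 TPM in IDH2R140W, against 2.24 ± 0.958 TPM in Parental (2.21, 1.39 and 1.17, adjusted p = 1.43e-05, 0.000818 and 0.00515), and did not pass in IDH2R172K (−0.09, 0.812). JUN was lower than in Parental, by less than 2-fold, in IDH2R140W (−0.38, 0.0214) and IDH2R172K (−0.72, 0.000133). The single call in IDH2R172K was lost without IDH2R172K replicate 3 or Parental replicate 2.

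Of 15 other genes of ERK output, chiefly phosphatases and ETS factors related to the members, 12 were tested. EPHA2 was under the level for testing, and DUSP9 and SPRY3, each on 2 rows of the table, were listed at 0 in every library. DUSP8, under 1 TPM in every Parental library, entered the test through edited lines. In IDH1R132H 1 was higher and 2 lower at an adjusted p under 0.05 and at least 2-fold, and in each IDH2 line 0 were higher and 2 lower, so 3 of 12 in IDH1R132H and 2 of 12 in each IDH2 line beside the shares of all genes just given. Their medians were 0.46 in IDH1R132H and 0.28, −0.07 and −0.21 in IDH2R140Q, IDH2R140W and IDH2R172K. The one that rose was PHLDA1, a pleckstrin-homology-like protein (4.53 ± 0.108 TPM in IDH1R132H against 1.08 ± 0.289 TPM in Parental, 1.42, limma adjusted p = 4.42e-06).

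Apart from DUSP16 in IDH2R172K, the falls among them were in relatives of ETV5. ETV4 stood at 21.6 ± 0.382 TPM in IDH1R132H, 17.4 ± 0.300 TPM in IDH2R140Q and 18.4 ± 1.79 TPM in IDH2R140W, against 51.6 ± 6.43 TPM in Parental (−1.21, −1.51 and −1.44, limma adjusted p = 2.48e-07, 3.45e-08 and 1.28e-07). In IDH2R172K it stood at 25.3 ± 0.335 TPM (−0.99, 2.16e-06), just under 2-fold, a value chosen after it was seen. ETV1 was lower in IDH1R132H (0.757 ± 0.610 TPM), IDH2R140Q (0.920 ± 0.659 TPM), IDH2R140W (0.763 ± 0.290 TPM) and IDH2R172K (1.49 ± 0.712 TPM) than in Parental (4.10 ± 0.755 TPM), by −1.58, −1.45, −1.53 and −1.07 (adjusted p = 0.000596, 0.00124, 0.00151 and 0.0102). So ETV4 and ETV1, which with ETV5 make up the PEA3 group, were lower in every edited line, whereas ETV5 passed as lower in IDH2R140W; the difference between these genes was not tested. In IDH2R172K DUSP16, a phosphatase directed mainly at JNK and p38, was the second that was lower by 2-fold (1.03 ± 0.370 TPM against 3.54 ± 1.33 TPM in Parental, −1.13, 0.00464).

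Of 30 genes of the cascade from the GM-CSF receptor to ERK and its targets, 29 were tested and CSF2RA was not. On the log2(TPM + 1) scale none passed at 2-fold in IDH1R132H or IDH2R172K, and 1 was higher in each of IDH2R140Q and IDH2R140W. JAK2 stood at 4.01 ± 0.336 TPM in IDH2R172K against 8.93 ± 0.923 TPM in Parental, over 2-fold in TPM but not called on that scale. Their medians were 0.26, 0.38, 0.10 and 0.22 in IDH1R132H, IDH2R140Q, IDH2R140W and IDH2R172K, where those of all genes were 0.16, 0.23, 0.03 and 0.13. At an adjusted p under 0.05 alone, 11 were higher and 0 lower in IDH1R132H, 16 and 1 in IDH2R140Q, 5 and 3 in IDH2R140W and 9 and 3 in IDH2R172K. Of all genes, 30.1% were higher and 13.7% lower in IDH1R132H, 33.3% and 11.1% in IDH2R140Q, 13.3% and 10.7% in IDH2R140W and 25.5% and 13.5% in IDH2R172K, so the numbers of higher genes of 29 in IDH1R132H, IDH2R140W and IDH2R172K lie near the shares of all genes. CSF2RB, the signalling chain of the GM-CSF receptor, stood at 167 ± 32.3 TPM in IDH2R140W, against 66.6 ± 14.5 TPM in Parental (1.32, limma adjusted p = 1.78e-05). SOS1, an activator of RAS, stood at 48.0 ± 5.30 TPM in IDH2R140Q, against 23.6 ± 10.9 TPM in Parental (1.11, 0.0281). The SOS1 call was lost after median-ratio scaling (0.85, 0.052), and the count in IDH2R140Q was 0 without IDH2R140Q replicate 1 or 3 or Parental replicate 2 and 4 without Parental replicate 1.

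**Figure D4:**
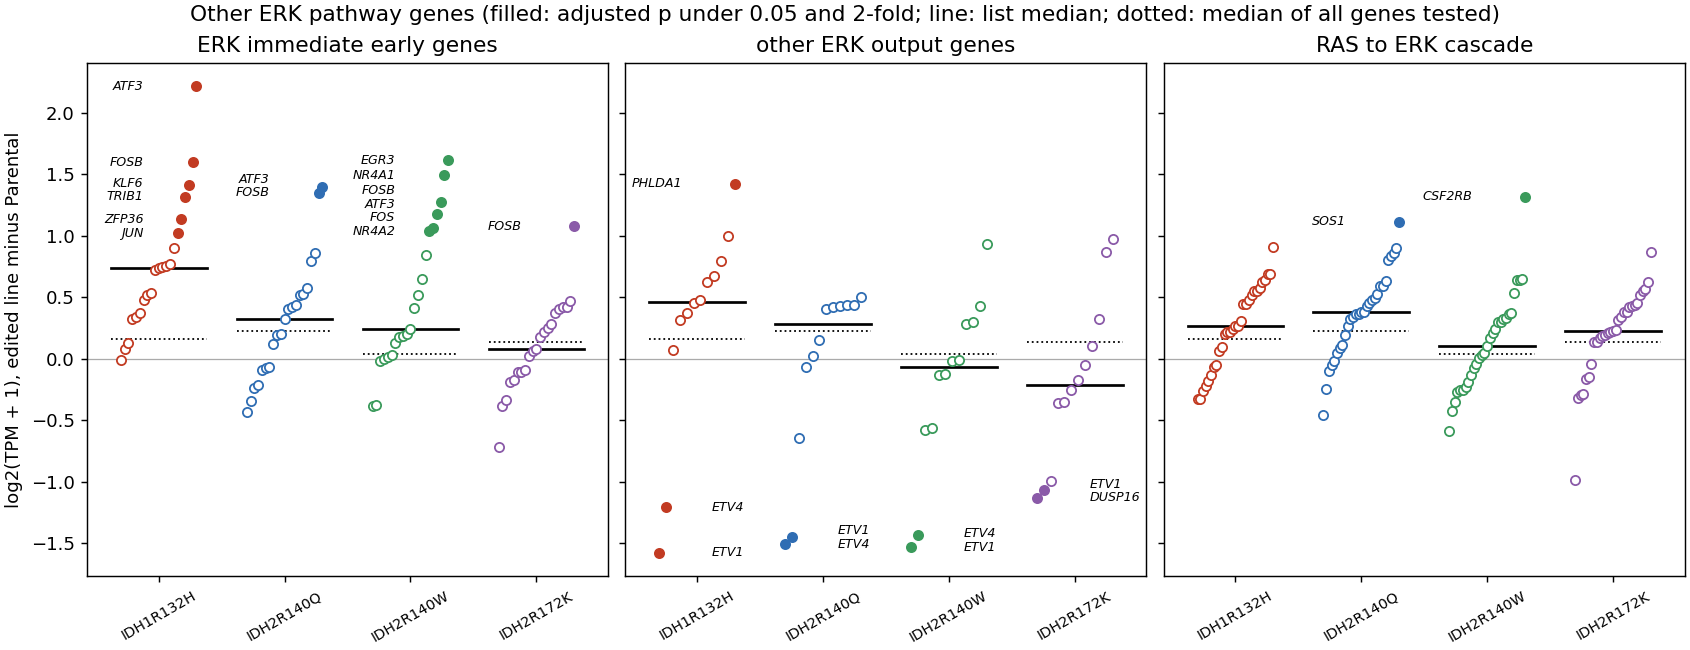
Differences from Parental on the log2(TPM + 1) scale of the tested genes of the 3 other lists in each edited line. Filled points have a limma adjusted p under 0.05 and are at least 2-fold apart, solid lines are list medians and dotted lines the median of all genes tested. The immediate early genes have 6 filled points above 0 in IDH1R132H and 6 in IDH2R140W, and ETV1 lies below −1 in all 4 lines. EGR3 and NR4A2, both filled in IDH2R140W, entered the test through edited lines.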

How the data were processed

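Poly(A) RNA of 15 TF-1 libraries in 5 groups of 3, grouped by the genotype in the labels, was used. The authors deposited 1 table of TPM, scaled for transcript length and to a fixed library total. Per the submitters' processing notes, the tools included RSEM, HTSeq, STAR 2.7.3 and DESeq2 and the genome was hg38; which tool did what, the annotation, the strand setting and any filters are not given in those sources. TPM keeps no read number, so the depth of each library and the precision it gives are unknown.

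Of 63568 rows, 6 whose symbols had become dates were left out, and rows of the same symbol were summed to 56624 symbols. The 14881 genes that reached 1 TPM in 3 or more libraries entered limma 3.58.1 (R 4.3.3) as log2(TPM + 1), with a mean per group and an intensity trend. A difference passed at a Benjamini-Hochberg adjusted p under 0.05 over all these genes, and counts at 2-fold needed a log2 difference of at least 1 as well. The procedure was tested on simulated data, with differences larger than most member differences here and in genes above the Parental levels of DUSP4 and SPRY4. That test therefore does not cover genes as low as these or smaller differences. All members are named. Of each other list, up to 3 genes per comparison with the smallest adjusted p among those at 2-fold are named, and others where a count was 5 or fewer. Coordinates come from GENCODE release 29 and promoters from RefSeq. The members and lists were chosen with earlier results of these data known. Alternatives are given in the closing section, and counts at any fold under each alternative, and the neighbouring genes, were added after the data were seen. Some marker genes are not reported here.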

Additional observations from a re-analysis of the deposited data

Results flagged for a closer look

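For 3 members, lines passed against Parental in opposite directions. The difference between such lines follows from those differences in the same fit, so it is given as a description and not as a further result. DUSP5 was higher in IDH1R132H than in IDH2R140Q by 1.66 on the log2(TPM + 1) scale (limma adjusted p = 3.9e-08, 3 of 3 libraries above) and higher in IDH2R172K than in IDH2R140Q by 1.52 (5.33e-08, 3 of 3). SPRY2 was higher in IDH1R132H than in IDH2R140W by 0.83 (2.6e-06, 3 of 3), although its difference from Parental in IDH2R140W did not pass in a fit of only the libraries compared (0.0827). SPRY4 was higher in IDH1R132H than in IDH2R140Q by 1.21 (0.000593, 3 of 3), although its difference from Parental in IDH2R140Q did not pass when any of 4 libraries was left out.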

How the results depend on the processing

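Of 17 member differences from Parental that passed at any fold, 10 passed under every alternative run, those of DUSP4 in all 4 lines, DUSP5 in IDH1R132H, IDH2R140Q and IDH2R172K, and DUSP6, SPRY1 and SPRY2 in IDH1R132H. Without DUSP4, which entered the test through the edited lines, it was 6 of 13. DUSP4 was not tested at a minimum of 5 TPM, nor was SPRY4. At any fold, 7 higher and 0 lower in IDH1R132H became 5 and 0 after quantile normalisation, 1 and 2 in IDH2R140Q became 1 and 7, and 2 and 0 in IDH2R172K became 2 and 4. With library weights the counts in IDH2R140Q were 1 and 5 and in IDH2R172K 2 and 5. In a fit of only the libraries compared 2 and 3 in IDH2R140W became 1 and 0. Shares of all genes at any fold were not computed under these settings, so these counts are not read as results about the members.

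For the comparisons with Parental, written IDH1R132H, IDH2R140Q, IDH2R140W and IDH2R172K in this order, the number of members at 2-fold was 2, 0, 0 and 1. It became 7, 3, 5 and 2 of 10 with no minimum fold, where 43.8%, 44.4%, 24% and 39.1% of all genes passed. The counts in IDH2R140Q and IDH2R172K lie under those shares. With a pseudocount of 0.1 it was 1 in IDH2R140Q and 1 in IDH2R140W, where 2210 and 1115 of 14881 genes passed. It became 1 in IDH1R132H and 0 in IDH2R172K at a minimum of 5 TPM, where 1183 and 1000 genes passed. After median-ratio scaling it was 1 in IDH1R132H and 1 in IDH2R140Q, where 1495 and 1294 genes passed. After quantile normalisation it was 0 in IDH1R132H and 1 in IDH2R140Q, where 1475 and 1248 passed. In IDH1R132H it was 1 after rescaling without globin and mitochondrial genes (1589 genes). It was also 1 there without Parental replicate 2 and IDH2R140W replicate 3 (1461 genes). Leaving out each library in turn gave 1 to 2 in IDH1R132H and 0 to 1 in IDH2R140W. None of these counts under alternatives is read as a result about the members.

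Between edited lines, the share or number of all genes that passed in either direction is given in brackets. IDH1R132H against IDH2R140Q had 2 members at 2-fold (5.5%), but 7 with no minimum fold (28.5%) and 1 at a minimum of 5 TPM (581 genes). IDH1R132H against IDH2R140W had 1 (7.86%), but 8 with no minimum fold (35.6%) and 0 with library weights (1166 genes). It had 1 to 2 when a library was left out. IDH1R132H against IDH2R172K had 1 (7.49%), but 7 with no minimum fold (32.5%) and 2 with a pseudocount of 0.1 (1585 genes). It had 0 to 2 when a library was left out. IDH2R140W against IDH2R140Q had 0 (5.69%), but 3 with no minimum fold (32.9%) and 1 after median-ratio scaling (736 genes) or quantile normalisation (753 genes). IDH2R172K against IDH2R140Q had 2 (7.57%), but 1 at a minimum of 5 TPM (768 genes). IDH2R172K against IDH2R140W had 1 (6.86%), but 5 with no minimum fold (31.2%) and 0 at 5 TPM (731 genes).

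For the immediate early genes (6, 2, 6 and 1), no minimum fold gave 16, 9, 11 and 6 of 21. With no minimum fold 43.8%, 44.4%, 24% and 39.1% of all genes passed, so those in IDH2R140Q and IDH2R172K lie near or under the shares. In IDH2R172K the count was 0 after median-ratio scaling, after quantile normalisation and without Parental replicate 2 and IDH2R140W replicate 3, and 0 to 1 when a library was left out. For the other ERK output genes (3, 2, 2 and 2), no minimum fold gave 8, 4 and 6 of 12 in IDH1R132H, IDH2R140Q and IDH2R172K, beside the same shares. A minimum of 5 TPM gave 1, 1, 1 and 0, and leaving out a library gave 1 to 3 in IDH2R172K. For the cascade (0, 1, 1 and 0), no minimum fold gave 11, 17, 8 and 12 of 29. Those in IDH1R132H, IDH2R140W and IDH2R172K lie near the same shares of all genes. A library left out gave 0 to 1 in IDH1R132H, 0 to 4 in IDH2R140Q and 0 to 1 in IDH2R172K. In IDH2R140Q the cascade count was 2 with a pseudocount of 0.1. It was 0 there with no filter on low values, median-ratio scaling, quantile normalisation, library weights or without Parental replicate 2 and IDH2R140W replicate 3. In IDH2R172K it was 1 under each of those except the filter.

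Signs that turned belonged to differences near 0 that did not pass: DUSP6 in IDH2R140Q (−0.04 after median-ratio scaling, −0.047 after quantile normalisation), SPRY2 in IDH2R172K (−0.062 and −0.06 after the same) and DUSP5 in IDH2R140W (0.001 with library weights). Leaving out a library moved DUSP5 in IDH2R140W between −0.10 and 0.033, DUSP6 in IDH2R172K between −0.14 and 0.10, SPRED2 in IDH1R132H between −0.31 and 0.13, SPRED1 in IDH2R172K between −0.42 and 0.073, SPRY4 in IDH2R140W between −0.20 and 0.15, ETV5 in IDH2R140Q between −0.22 and 0.043 and EGR1 in IDH2R140Q between −0.12 and 0.055. The cause of these changes was not tested.

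Groups share replicate numbers, but deviations of libraries with the same number correlated at −0.285 to 0.223, over 0.1 in 1 of 30 pairs, and 6 of 15 libraries correlated best with their own number, so the numbers were not taken to pair libraries. With the replicate block, members at 2-fold stayed at 2 in IDH1R132H and 1 in IDH2R172K. SPRY4 in IDH2R140Q then had an adjusted p of 0.053. Depth is unknown, which limits what can be said of DUSP4 and SPRY4, both at a few TPM or less.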

Other observations

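Immediate early genes and cascade genes were also compared between the edited lines, in the same medium. Of 21 immediate early genes, those at an adjusted p under 0.05 and at least 2-fold were 1 higher in IDH1R132H than in IDH2R140Q (5.5% of all genes in either direction), 4 higher than in IDH2R140W (7.86%) and 5 higher than in IDH2R172K (7.49%), with 0 lower in each. JUN stood at 46.2 TPM in IDH1R132H and 13.2 TPM in IDH2R172K (log2 difference 1.74, limma adjusted p = 4.03e-08), and ATF3 at 13.8 TPM and 2.03 TPM (2.30, 1.45e-05). The 1 of 21 against IDH2R140Q lies near its share. IDH2R140W had 3 higher than IDH2R140Q (5.69%), which were BTG2, EGR3 and NR4A1. IDH2R172K had 4 lower than IDH2R140W (6.86%), which were ATF3, EGR3, FOS and NR4A1. Of 29 cascade genes tested, 0 were higher and 2 lower in IDH1R132H than in IDH2R140Q. Against IDH2R140W they were 2 and 1, and against IDH2R172K 1 and 1. Among the IDH2 lines 1 was lower in IDH2R172K than in IDH2R140Q (7.57%), and none passed in the other pairs. These cascade counts lie near or under the shares of all genes.

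CSF2RB, the signalling chain of the GM-CSF receptor, was lower in IDH1R132H (54.9, 55.8 and 52.2 TPM) than in IDH2R140Q (120.2, 117.5 and 115.2 TPM), IDH2R140W (185.7, 185.5 and 129.7 TPM) and IDH2R172K (119.4, 117.5 and 123.4 TPM), with no overlap of libraries. The log2 differences were −1.10, −1.58 and −1.13 (limma adjusted p = 7.44e-05, 1.63e-06 and 4.55e-05). JAK2, the kinase bound to that chain, stood at 4.01 ± 0.336 TPM in IDH2R172K and 13.3 ± 1.14 TPM in IDH2R140Q (SD, n = 3 libraries each; −1.51, adjusted p = 1.73e-06). Any relation of these levels to the ERK feedback genes was not tested.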
